A study of Homo sapiens with 16 samples.

Results

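The cytosolic ribosomal protein genes encode the proteins of the large (RPL) and small (RPS) subunits of the ribosome that translates nuclear messengers. Members were all rows of both deposited tables whose identifier belongs to a protein-coding gene with a symbol of the form RPL or RPS plus a number, together with RPLP0, RPLP1, RPLP2 and RPSA, and without pseudogenes. This gave 81 of 26410 genes, 49 of the large and 32 of the small subunit, spread over 21 chromosomes. RPS27L, a paralogue of RPS27, was kept apart from the other 80 genes. RPL10L was not analysed here.

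The libraries were polyA RNA from SH-SY5Y, an established human neuroblastoma line. Scr cells had received Cas9 with a scrambled guide, and TRPM2 KO cells had received Cas9 with a guide against TRPM2, which encodes a calcium-permeable channel. Both had been co-transfected with the same donor carrying GFP and puromycin markers and had been selected in puromycin, so the controls share these features. There were 2 single-cell clones per genotype (Scr13 and Scr16, KO11 and KO28), each left untreated or given 0.3 µM doxorubicin, a topoisomerase II poison, for 24 h, with 2 libraries per clone and treatment. The series text states 3 µM where the sample labels state 0.3 µM. Each of the 4 groups (Scr untreated, Scr doxorubicin, KO untreated, KO doxorubicin) thus held 4 libraries from 2 clones. Genotype was carried by 2 clones each, so clone and genotype cannot be fully told apart. Libraries held 10481177 to 25086085 reads on genes. Values are normalized CPM, read counts scaled for library size and composition, as deposited.

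The targeted gene was examined first. TRPM2 stood at 1.93 and 2.23 CPM in KO11 untreated, 1.41 and 2.19 in KO28 untreated, 0.118 and 0.115 in Scr13 untreated and 0 in both Scr16 untreated libraries. After doxorubicin it stood at 1.22 and 1.83 in KO11, 1.37 and 0.658 in KO28, 0.0594 and 0.0631 in Scr13, and 1.33 and 0.39 in Scr16. Reads on the whole gene were therefore higher in the untreated libraries labelled KO than in those labelled Scr, against the label. After doxorubicin the values of the 2 genotypes overlapped. The study states that its KO and Scr cells were authenticated by RT-PCR and Western blotting. The study describes a deletion at the start of the coding sequence with a frameshift, which reads summed over all exons cannot show. The groups are called KO-labelled below, and each direction between genotypes rests on that label. The study reports p21 as increased in TRPM2 KO cells by RT-qPCR and Western blotting. Its gene, CDKN1A, was higher in KO-labelled than in Scr libraries in both treatments, with values given below. Whether labels were exchanged was not tested. Of the noradrenergic neuroblastoma markers, HAND2 averaged 1486 CPM, GATA2 1379, DBH 1585 and PHOX2A 709, whereas TH stood at 0.328 and CHGA at 2.98. The Schwann marker S100B averaged 0.208 CPM. Mesenchymal markers were present, with VIM the most abundant at 275 CPM, TWIST1 at 234, FN1 at 152.5 and COL3A1 at 114, while COL1A2 stood at 1.07. Summed over that list they ran from 596 to 1072 CPM in Scr untreated and from 995 to 1316 in KO-labelled untreated libraries, which overlapped. After doxorubicin they ran from 607 to 858 in Scr and from 1004 to 1359 in KO-labelled libraries, without overlap, and their part in the genotype differences below was not tested.

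Ribosomal proteins are made in matched amounts and assembled with ribosomal RNA in the nucleolus. Their messengers are among the most abundant in growing cells, and most begin with a terminal oligopyrimidine (TOP) tract, a run of C and T bases that places their translation under the control of mTORC1. Free RPL5 and RPL11, bound to 5S RNA, can hold MDM2 and stabilize p53, and RPS27L is a known transcriptional target of p53.

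The start of the gene shows this feature in the reference sequence. Below are 40 bases around the annotated start, 20 on each side, from RefSeq on GRCh38.p14, 5′ to 3′ on the strand of the gene. They are given for RPS27L and RPS27 and for called members with and without a marked run. Capitals mark the longest run of C and T that opens with C within 5 bases of the start and has 5 or more bases.

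RPS27L: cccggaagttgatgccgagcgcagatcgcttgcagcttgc

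RPS27: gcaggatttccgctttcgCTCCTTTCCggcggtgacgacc

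RPS19: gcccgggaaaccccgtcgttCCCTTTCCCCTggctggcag

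RPL28: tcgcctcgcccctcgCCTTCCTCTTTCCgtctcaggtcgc

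RPL12: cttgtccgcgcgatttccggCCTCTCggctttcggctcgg

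RPL27: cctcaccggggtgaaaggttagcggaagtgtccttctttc

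RPL10: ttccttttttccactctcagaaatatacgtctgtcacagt

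The windows lie at chr15:63157458-63157497 (minus strand), chr1:153990742-153990781 (plus), chr19:41860235-41860274 (plus), chr19:55385912-55385951 (plus), chr9:127451387-127451426 (minus), chr17:42998399-42998438 (plus) and chrX:154398045-154398084 (plus). Such a run was found in 51 of the 64 members with a promoter in the RefSeq table (79.7%), against 21.1% of all 27305 promoters and 22.1% of 68 promoters of mitochondrial ribosomal protein genes. RPS27 held one of 9 bases, and RPS27L, RPL27 and RPL10 held none that opened within 5 bases of the annotated start. RPL27 and RPL10 held runs of C and T elsewhere in the window. Of the other called members, RPL36 and RPS10 held one, and RPL23A was not among the 64 with a promoter.

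Levels among the members differed widely. Mean CPM over the 16 libraries reached 500 or more in 45 genes and stayed under 10 in 7. Divided by messenger length, RPLP1, a stalk protein, was highest at 3018 CPM per kb and RPL28 stood at 1853, and the median member stood at 782. The lowest were RPL3L, a striated-muscle paralogue of RPL3, at 0.0239 CPM per kb, RPS18 at 0.13 and RPS9 at 2.74. RPL3L and RPS18 did not pass the filter on low values (1 CPM in 4 libraries), which left 79 members tested in each comparison.

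**Figure D1:**
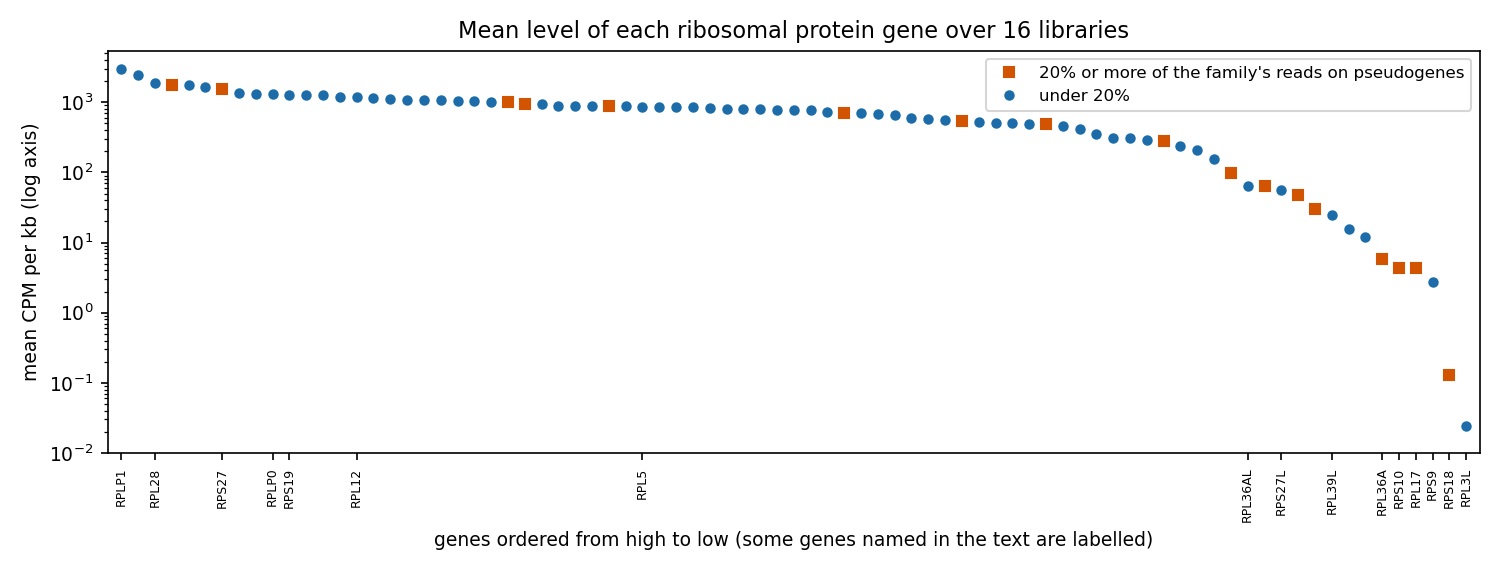
Mean level of each of the 81 genes over 16 libraries, in CPM per kb of messenger on a log axis, ordered from high to low with some genes labelled, and with squares for genes whose pseudogenes held 20% or more of the reads of gene and pseudogenes together. The levels ran from 3018 for RPLP1 to 0.0239 for RPL3L, and RPS18, RPL17, RPS10 and RPL36A, at the low end, were squares while RPS9 was not.

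Several core genes, which every ribosome needs, were listed with hardly any reads while their processed pseudogenes held many. RPS18 averaged 0.0779 CPM and its pseudogene RPS18P5 79.6. RPL36A ran from 2.09 to 6.14 CPM while RPL36AP37 averaged 145, and RPL17 averaged 3.11 beside 36.7 for RPL17P7. In 17 members pseudogenes held 20% or more of the family's reads. RPL17, RPL36A and RPS10 also overlap read-through genes on the same strand, and 9 members overlap another protein-coding gene in this way. RPS9 averaged 2.11 CPM with no pseudogene in the tables. The levels of these genes are uncertain, and how reads were assigned was not tested.

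RPS27L was the member that differed most clearly between groups. It stood at 24.0 and 20.8 CPM in Scr13 untreated and at 20.5 and 21.8 in Scr16 untreated. After doxorubicin it stood at 46.9 and 48.4 in Scr13 and at 44.0 and 42.4 in Scr16. KO-labelled untreated libraries held 39.5 and 31.3 (KO11) and 38.4 and 36.3 (KO28), and doxorubicin libraries held 77.4 and 79.5 (KO11) and 65.1 and 79.7 (KO28). None of the 4 comparisons between groups had overlapping values. Doxorubicin raised RPS27L by 1.03 on the log2 scale in both Scr (SE 0.102, adjusted p = 2.24e-08) and KO-labelled cells (SE 0.102, adjusted p = 1.06e-08, limma with Benjamini-Hochberg adjustment over all genes tested). KO-labelled libraries were higher by 0.71 untreated (SE 0.117, adjusted p = 5.07e-04, limma) and by 0.72 after doxorubicin (SE 0.0951, adjusted p = 2.08e-05, limma). The two-sided exact permutation p was 0.0286 in each of these comparisons, the smallest that 4 against 4 allows. Both tests treated the 4 libraries of a group as separate units, though they came from 2 clones. The interaction was 0.01 (SE 0.145, adjusted p = 0.998, limma). By clone, the ratio of doxorubicin to untreated means was 2.13 in Scr13, 2.04 in Scr16, 2.22 in KO11 and 1.94 in KO28.

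**Figure D2:**
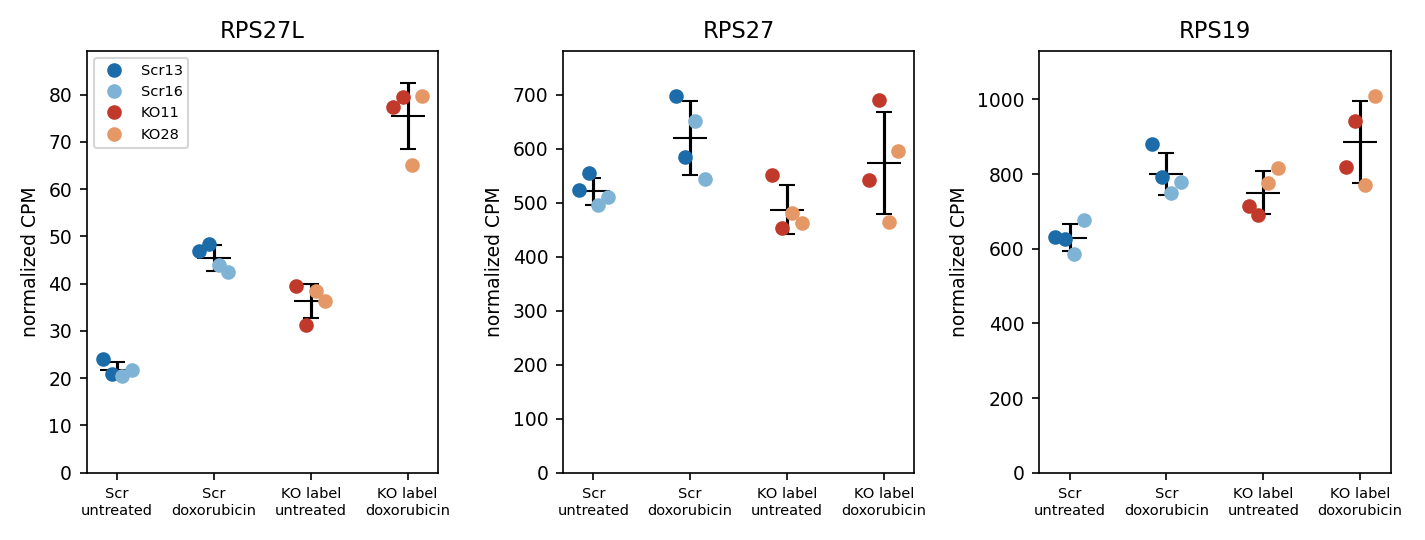
Normalized CPM of RPS27L, RPS27 and RPS19 in each of the 16 libraries, coloured by clone, with the mean and SD of each group of 4 libraries. RPS27L separated all compared groups (21.8 and 45.4 CPM on average in Scr, 36.4 and 75.4 in KO-labelled libraries), whereas the RPS27 groups overlapped.

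RPS27 averaged 521 ± 25.5 CPM in Scr untreated, 619 ± 68.6 in Scr doxorubicin, 487 ± 44.7 in KO-labelled untreated and 573 ± 94.4 in KO-labelled doxorubicin libraries (SD, n = 4 each). Its groups overlapped in all 4 comparisons and none passed the threshold (adjusted p = 0.609, 0.570, 0.0894 and 0.105, limma). Among 10051 genes averaging 10 CPM or more, those whose log2 levels ran most like RPS27L over the 16 libraries were ACTA2 (Pearson r 0.979), CDKN1A (0.978) and DRAXIN (0.976), a description over libraries that share clones and treatments. CDKN1A, the CDK inhibitor p21 and a p53 target, averaged 57.0 ± 15.2 CPM in Scr untreated, 337 ± 25.1 in Scr doxorubicin, 136 ± 16.5 in KO-labelled untreated and 736 ± 45.3 in KO-labelled doxorubicin libraries. Of the 20 listed p53 targets, a list without RPS27L, 19 of 20 tested rose with doxorubicin in Scr and 20 of 20 in KO-labelled cells, 9 of 19 were higher in KO-labelled untreated and 14 of 20 in KO-labelled doxorubicin libraries, and none fell. These are 95% and 100% of the list for doxorubicin, against 11.5% and 16.7% of all genes tested, and 47.4% and 70% between genotypes, against 4.84% and 8.69%.

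Of the other 80 genes, 78 were tested. In untreated cells 2 of 78 tested were higher in KO-labelled libraries and none lower, where 4.84% of all 14364 genes tested were called. RPL27 averaged 764 ± 141 against 588 ± 50.1 CPM (log2 fold change 0.36, SE 0.1, adjusted p = 0.0392, limma), with overlapping groups. RPS19, a small-subunit protein mutated in Diamond-Blackfan anaemia, averaged 750 ± 57.2 against 630 ± 36.7 (0.25, SE 0.0698, adjusted p = 0.0413, limma), without overlap. Groups did not overlap for 5 of the 78, beside 9.29% of all genes. The median log2 fold change of the 78 was 0.05, against -0.01 over all genes tested, and 57 of 78 were positive, against 48.2% of all genes. Both calls were lost, each time, when Scr13 replicate 1, Scr13 replicate 2, Scr16 replicate 1, KO28 replicate 1 or KO28 replicate 2 was left out. RPL26 alone was called without Scr13 replicate 2, and 4 genes were called without KO11 replicate 1. With clone Scr13, Scr16 or KO28 left out 0 were called, and with KO11 left out 7 were. The 4.84% belongs to the fit on all 8 libraries, and no share of all genes is given for these reduced fits.

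After doxorubicin 1 of the 78 was lower in KO-labelled libraries and none higher, where 8.69% of 14572 genes were called. RPL36 stood at 389 and 536 CPM in KO11, 386 and 462 in KO28, 536 and 470 in Scr13 and 602 and 627 in Scr16. The Scr16 libraries were the highest, Scr13 replicate 1 stood level with the highest KO-labelled library and Scr13 replicate 2 fell among the KO-labelled ones (log2 fold change -0.34, SE 0.102, adjusted p = 0.0409, limma). None of the 78 had groups that did not overlap, beside 13.2% of all genes. The median was -0.04, against 0.01 over all genes, and 27 of 78 were positive, against 52.6% of all genes. RPL36 overlaps HSD11B1L on the same strand, which averaged 13.8 CPM. The call was lost when KO11 replicate 1, Scr13 replicate 1, either Scr16 library or either KO28 library was left out, and with clone KO11, Scr16 or KO28 left out.

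Doxorubicin in Scr cells raised 5 of the 78 and lowered none, where 11.5% of 15325 genes were called. RPL28 stood at 980 and 1056 CPM in Scr13 untreated, 975 and 1086 in Scr16 untreated, 1302 and 1302 in Scr13 doxorubicin and 1517 and 1396 in Scr16 doxorubicin libraries. It rose by 0.43 (SE 0.0937, adjusted p = 0.00244, limma) without overlap. RPL12 rose from 569 ± 37.8 to 733 ± 62.8 CPM (0.36, adjusted p = 0.00315), RPS19 from 630 ± 36.7 to 800 ± 56.3 (0.34, adjusted p = 0.00485), RPL23A from 621 ± 21.4 to 748 ± 56.3 (0.27, adjusted p = 0.0316) and RPL10 from 982 ± 31.4 to 1149 ± 38.0 (0.23, adjusted p = 0.0455, limma throughout). Groups did not overlap for 18 of the 78, beside 16.4% of all genes. The median of the 78 was 0.15, against -0.01 over all genes, and 70 of 78 were positive, against 48.0% of all genes. With Scr13 doxorubicin replicate 2 left out 14 were called, with KO11 doxorubicin replicate 2 left out 8 were, and with either replicate 1 of Scr13 or the untreated replicate 1 of Scr16 left out 3 were. With clone Scr13 left out RPL28 alone was called, with Scr16 left out RPS19 alone, and with KO28 left out 15. The 11.5% belongs to the fit on all 16 libraries, and no share of all genes is given for these reduced fits. Their counts therefore cannot show whether the members moved apart from other genes.

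In KO-labelled cells doxorubicin raised 1 of the 78 and lowered 1, where 16.7% of 15325 genes were called. RPS19 averaged 885 ± 109.5 against 750 ± 57.2 CPM, with overlapping groups (0.23, SE 0.0814, adjusted p = 0.0466, limma). RPS10 averaged 1.92 ± 0.291 against 4.41 ± 1.42 CPM (-0.86, SE 0.243, adjusted p = 0.0127, limma), at a level that is uncertain as described above. The RPS10 call was lost without KO28 untreated replicate 1, where 0 were called, and without clone KO11 or clone KO28. RPS19 lost its call when either untreated library of KO11 or Scr13 was left out, and also without untreated replicate 2 of Scr16, untreated replicate 1 of KO28, or doxorubicin replicate 2 of KO11, Scr16 or KO28, whereas 4 genes were called without KO11 or KO28 doxorubicin replicate 1. The 16.7% belongs to the fit on all 16 libraries, and no share of all genes is given for these reduced fits. Groups did not overlap for 2 of the 78, beside 19.1% of all genes. The median was 0.06, against 0.02 over all genes, with 56 of 78 positive against 52.9% of all genes, and was -0.00136 with the length and GC trend removed. No member passed the test of the interaction, where 0.0196% of genes (3 of 15325) were called and 6 of the 78 had an unadjusted p under 0.05 (limma), beside 7.49% of all genes, and no other tool or setting tried called one. The median interaction of the 78 was -0.09, against 0.02 over all genes, and 11 of 78 were positive, against 54.5% of all genes. That median ran from -0.16 to -0.04 over the 32 alternatives. The members shifted together from library to library, as described below. The counts of positive members in each comparison are therefore not 78 separate results.

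**Figure D3:**
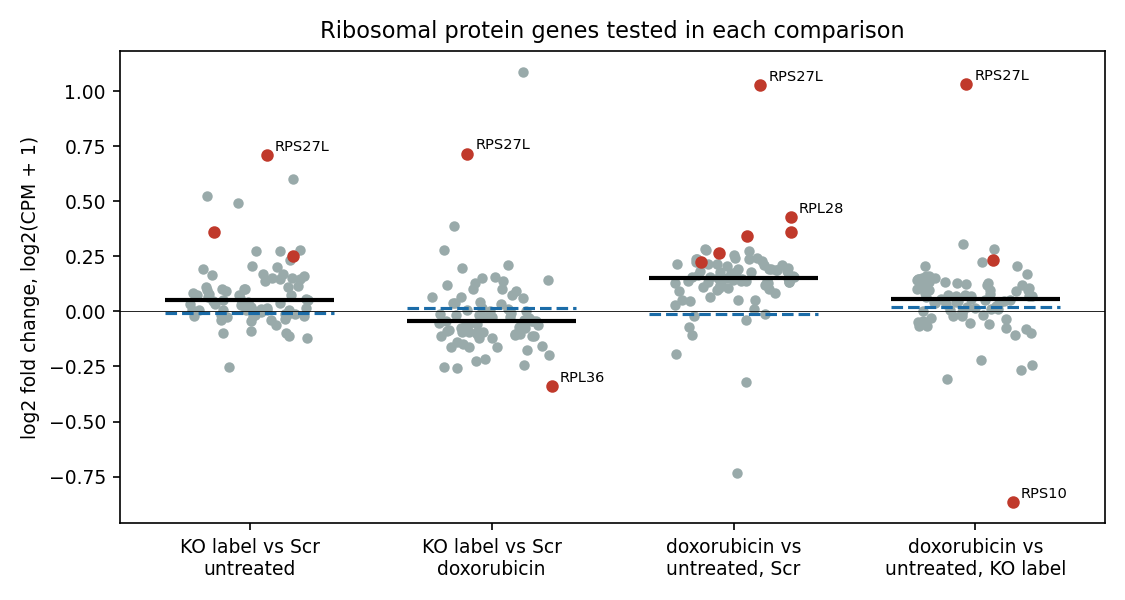
Log2 fold change on log2(CPM + 1) of each of the 79 genes tested, in the 4 comparisons, with genes past the threshold in red, the median of the 78 members other than RPS27L as a black line and the median of all genes tested as a dashed line. RPS27L lies above the other called genes in all 4, and the members' median was 0.15 for doxorubicin in Scr and between -0.04 and 0.06 in the other comparisons.

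The members shifted together from library to library. For the 66 averaging 100 CPM or more, the median Pearson r between pairs over the 16 libraries was 0.621, against 0.157 for 66 mitochondrial ribosomal protein genes averaging 10 CPM or more, and the first principal component held 58.1% of their variance. These points share depth and normalization. The sets were cut at different levels (100 and 10 CPM), so their values of r are not matched for counting noise. The share of all reads on the 81 genes was 4.56 ± 0.155% in Scr untreated, 5.08 ± 0.367% in Scr doxorubicin, 4.68 ± 0.197% in KO-labelled untreated and 4.81 ± 0.590% in KO-labelled doxorubicin libraries (SD, n = 4). Untreated libraries lay close together, while the doxorubicin libraries of KO11, of KO28 and of Scr13 lay apart. The median deviation from each gene's own mean was -0.12 and 0.20 in KO11 doxorubicin, -0.11 and 0.16 in KO28 doxorubicin, 0.17 and -0.05 in Scr13 doxorubicin and 0.15 and 0.10 in Scr16 doxorubicin. The messengers made in mitochondria took 4.50% and 2.92% of reads in the KO11 doxorubicin libraries and 4.004% and 3.83% in those of KO28. For Scr13 after doxorubicin the shares were 2.90% and 3.27%, for Scr16 2.996% and 2.86%, and their part in the shift was not tested. Over all genes tested the median deviation lay between -0.02 and 0.02 in every library.

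**Figure D4:**
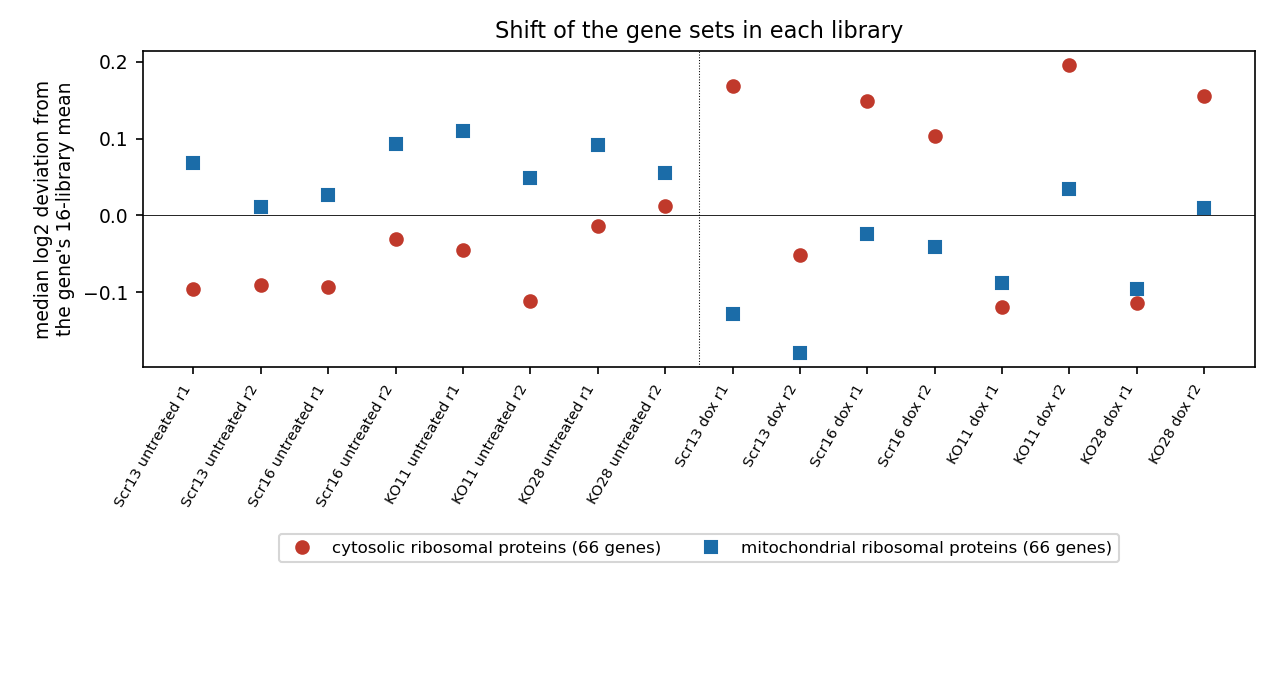
Median log2 deviation of 66 cytosolic and 66 mitochondrial ribosomal protein genes from each gene's mean over 16 libraries, one circle and one square per library, with untreated libraries left of the dotted line. The cytosolic set ran from -0.12 to 0.20, with replicates of KO11 doxorubicin at both ends.

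Members with known roles outside the ribosome were described next. RPL5 averaged 818 CPM in Scr untreated, 924 in Scr doxorubicin, 863 in KO-labelled untreated and 974 in KO-labelled doxorubicin libraries, and RPL11 averaged 649, 734, 694 and 773. Neither passed the threshold in any of the 4 comparisons (lowest adjusted p = 0.157 for RPL5 and 0.144 for RPL11, limma). RPS6, the substrate of S6 kinase, averaged 858, 924, 865 and 862 CPM in the same order, and RPSA, also a laminin receptor, 640, 647, 593 and 644. Of the stalk proteins, RPLP0 averaged 1439, 1585, 1352 and 1370, RPLP1 1298, 1478, 1319 and 1276, and RPLP2 464, 544, 478 and 459, with no call among them. The paralogue RPL39L averaged 20.1, 17.4, 19.9 and 16.2 CPM, and RPL36AL 45.4, 44.5, 51.9 and 50.8, again without a call. RPL32 was singled out after its values were seen, since the study's RT-qPCR used it as the reference gene. It averaged 482 ± 22.5, 559 ± 42.3, 555 ± 31.2 and 548 ± 47.7 CPM, and in untreated cells its groups did not overlap (log2 fold change 0.20, SE 0.065, adjusted p = 0.0930, limma).

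The genes that build ribosomes were described beside those that compose them. Of 59 ribosome assembly and rRNA processing genes, 14 fell with doxorubicin in Scr and 18 in KO-labelled cells, and none rose, with medians of -0.19 and -0.23. That is 23.7% and 30.5% of the list called, against 11.5% and 16.7% of all genes tested. UTP20, of the small-subunit processome, fell from 60.9 ± 5.73 to 42.4 ± 3.30 CPM in Scr (-0.51, adjusted p = 4.95e-04, limma), and NLE1, a large-subunit assembly factor, from 33.1 ± 3.54 to 23.2 ± 3.43 in KO-labelled cells (-0.50, adjusted p = 0.00363, limma). Of 75 mitochondrial ribosomal protein genes tested, 1 rose and 7 fell in Scr and 2 rose and 7 fell in KO-labelled cells, with medians of -0.18 and -0.12. The shares called, 10.7% and 12%, were no higher than those of all genes (11.5% and 16.7%). Among them MRPL11 fell from 34.0 ± 4.82 to 20.7 ± 2.17 CPM in Scr (-0.69, adjusted p = 0.00108, limma). Between genotypes no assembly gene was called in either treatment, where 4.84% (untreated) and 8.69% (doxorubicin) of all genes were. Of the mitochondrial ribosomal protein genes none was called untreated, and MRPL49 and MRPL27 were higher in KO-labelled doxorubicin libraries, 2.67% of the list. These lists and the members shared their control libraries, and the difference between lists was not tested.

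Translation factors formed another list, chosen for messengers known to carry TOP tracts. Of 19 tested, 7 rose with doxorubicin in Scr and 4 in KO-labelled cells, and none fell. The share called was 36.8% against 11.5% of all genes in Scr, and 21.1% against 16.7% in KO-labelled cells. EEF2, elongation factor 2, rose from 5185 ± 486 to 7285 ± 369 CPM in Scr (0.49, adjusted p = 7.48e-04, limma), and RACK1, a small-subunit scaffold, rose there as well (0.36, adjusted p = 0.0041, limma). Of 13 genes of the 5S particle and MDM2 surveillance list, 2 rose and 3 fell in Scr, and 1 rose and 4 fell in KO-labelled cells, 38.5% of the list each time against the same 11.5% and 16.7% of all genes. MDM2 rose from 105 ± 9.08 to 196 ± 16.2 CPM in Scr (0.89, adjusted p = 4.97e-09, limma) and from 129 ± 11.3 to 324 ± 27.0 in KO-labelled cells (1.33, adjusted p = 8.76e-13, limma). It was also higher in KO-labelled than in Scr doxorubicin libraries (0.72, adjusted p = 1.66e-06, limma). That was the only call of its list between genotypes, 7.69% of it, below the 8.69% of all genes. Of 18 mTORC1 and TOP regulators, 3 rose and 2 fell in Scr and 2 rose and 5 fell in KO-labelled cells (27.8% and 38.9% called). SESN2, an inhibitor of mTORC1 and a p53 target, rose by 1.52 and 1.65, and MYC, which drives transcription of ribosome genes, fell by 0.80 and by 1.09 on the log2 scale. Between genotypes DDIT4 was higher in KO-labelled untreated libraries, 5.56% of this list against 4.84% of all genes. After doxorubicin SESN1 and SESN2 were higher and MYCN was lower in KO-labelled libraries, 16.7% of the list against 8.69%. Of 14 RNA polymerase I genes, 2 rose and 1 fell in Scr and 2 fell in KO-labelled cells (21.4% called, above the 11.5% of all genes, and 14.3%, below the 16.7%). Of 13 snoRNA host genes, SNHG8 rose in Scr (0.47, adjusted p = 0.0153, limma) and SNHG7 was lower in KO-labelled doxorubicin libraries (-0.49, adjusted p = 0.0151, limma). Each was 7.69% of the list, below the 11.5% and 8.69% of all genes. The median of the list was 0.06 for doxorubicin in Scr, against -0.01 over all genes. Between genotypes after doxorubicin it was -0.22, against 0.01, and 5 of 13 were positive, against 52.6% of all genes. None of the 5 paralogues and fusion genes outside the rule, such as FAU, was called in any comparison.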

How the data were processed

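The 16 polyA libraries were analysed. The submitters' processing notes name bcl2fastq, HISAT2 2.1.0, HTSeq, edgeR and GRCh38. The authors deposited 2 tables, untreated and doxorubicin, holding normalized CPM per gene and library, a signal scaled by edgeR factors. The deposited tables also hold the authors' own comparison (p-value, q-value, log2 fold change and a ranking score), which was not used. Every deposited value was a whole multiple of 1 read within a tolerance of 0.01 reads (100% of values), so reads were recovered. Trimmed-mean factors recomputed over the 16 libraries matched the deposited ones to within 0.0149 (log2), so both tables were compared directly.

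Genes with 1 CPM or more in 4 libraries were tested with limma 3.58.1 (R 4.3.3) with trend on log2(CPM + 1), with Benjamini-Hochberg adjustment at 0.05: 8 libraries for each genotype comparison, 16 with 4 group means for doxorubicin and the interaction. Fold changes on log2(CPM + 1) understate changes of low genes. Alternatives included edgeR 4.0.16 and DESeq2 1.42.0 on recovered reads, replicate and clone blocks, and length and GC correction. On recovered reads edgeR called 636 and 1193 genes between genotypes (untreated, doxorubicin), 1703 and 2408 with doxorubicin (Scr, KO-labelled) and 3 in the interaction. The script was tested on simulated data. Symbols were matched for 95% of identifiers, positions and lengths taken from GENCODE 29. The study describes the 2 libraries per clone and treatment as biological replicates. None of the 8 replicate pairs agreed within sampling noise (chi-square per gene 7.44 or more). Named genes followed a rule: paralogue pairs, RPL5, RPL11, RPS6, RPSA and the stalk proteins, the 3 highest and 3 lowest members per kb, called members, and up to 3 called genes per list in each direction. Some of the genes named by this rule are not reported here. Members and lists were chosen with earlier results of these data known.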

Additional observations from a re-analysis of the deposited data

Results flagged for a closer look

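In 84 groups of 4 libraries (21 genes described in full), 5 had a library far from the other 3 by Dixon's criterion, where chance gives about 1 in 20. They were RPL11 at 754 CPM in KO11 untreated replicate 1, RPL23A at 788 in KO28 untreated replicate 1, RPL36AL at 39.8 in Scr16 untreated replicate 2, RPLP2 at 502 in Scr13 doxorubicin replicate 2 and RPS27L at 65.1 in KO28 doxorubicin replicate 1. The last value still lay above every RPS27L value of the other groups.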

How the results depend on the processing

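RPS27L kept its direction and stayed past the threshold in all 4 comparisons under every alternative run (23 settings for each genotype comparison, 32 for each doxorubicin comparison), with log2 fold changes of 0.67 to 0.78 and 0.65 to 0.79 between genotypes and 1.00 to 1.07 and 0.93 to 1.14 for doxorubicin. Of the other 78 genes tested, 0 were called in the interaction under any of the 32 alternatives. With KO-labelled against Scr untreated (2 called), 1 was called with library size alone, 0 without the filter, 5 with DESeq2, 5 with the length and GC trend removed, 7 without clone KO11 and 0 without clone KO28, Scr13 or Scr16. After doxorubicin (1 called), 0 were called without the filter, with edgeR or without clone KO11 or Scr16, 3 with DESeq2 or without clone Scr13, 2 with clone as a random block, and 2 with pseudogene reads summed into the parent gene, an alternative chosen after seeing the data. For doxorubicin in Scr (5 called), 3 were called with library size alone or without the filter, 16 with DESeq2, 14 with the length and GC trend removed, 1 without clone Scr13 or Scr16, 15 without clone KO28 and 8 with pseudogene reads summed. In KO-labelled cells (2 called), 1 was called with library size alone, with factors computed without ribosomal protein genes, without the filter, with edgeR, and without clone Scr13, Scr16 or KO28, and 0 without clone KO11. Leaving out one library gave 0 to 4, 0 to 2, 3 to 14 and 0 to 4 calls in the 4 comparisons. Shares of all genes called under these alternatives are not given here. The counts therefore cannot show whether the members moved apart from other genes. The cause of these moves was not tested.

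Within a clone, the deviations of same-numbered libraries from their group means correlated at -0.04 to 0.22. Sharing of a number across clones was not tested. After doxorubicin the members' median deviation was -0.12 and -0.11 in replicate 1 of KO11 and KO28, and 0.20 and 0.16 in replicate 2. It was 0.17 and 0.15 in replicate 1 of Scr13 and Scr16, and -0.05 and 0.10 in replicate 2. The replicate block gave 11 calls for doxorubicin in Scr, 20 with the length and GC trend also removed, and 4 with both in KO-labelled cells, while alone it gave 2, 1 and 3 calls in the remaining comparisons. These counts, too, have no share of all genes beside them. With 4 libraries from 2 clones a group, differences between clones limit what can be said of genotype. The level that 3 reads give was 0.118 to 0.285 CPM across libraries, and RPS18, with 0 to 3 reads, lay at or under it.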
